A study of Mus musculus with 7 samples.

Results

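The genes described here are the growth factor gene Igf1, the 2 receptor genes of the insulin type, Igf1r and Insr, and the 6 binding protein genes Igfbp2 to Igfbp7. They were chosen by name and make up 9 of the 32285 genes in the matrix of the ganglion library. That library was made from single cells of the trigeminal ganglion, from which sensory nerves run to the face and the teeth. The mice were wild type and at postnatal day 3.5. The study also collected molars at postnatal day 7.5 after TMX, 3 from Fgfr2fl/fl controls and 3 from Gli1-CreER;Fgfr2fl/fl mutants, which were not analysed here. With 1 ganglion library there is no replicate, so no difference between cell classes was tested and no p-value is given. The labels do not say how many ganglia or animals were pooled. The question addressed is which cells of the ganglion carried the transcripts of the ligand, of its receptors and of the proteins that bind it.

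IGF1 is a secreted growth factor related to insulin, made in the liver under growth hormone and also locally in many tissues, where it acts on neighbouring cells. It signals through IGF1R, a tyrosine kinase receptor that resembles the insulin receptor encoded by Insr, and the 2 receptor proteins can pair with each other. The binding proteins IGFBP2 to IGFBP6 hold IGFs with high affinity outside the cell, extend their life and limit or deliver them to receptors, and proteases release the ligand again. IGFBP7 binds IGFs only weakly and is known as a matrix protein of vessels.

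Members were placed on GRCm38 (mm10) with the GENCODE vM21 annotation. Igfbp2 (chr1:72824503-72852474, plus strand) and Igfbp5 (chr1:72857932-72874884, minus strand) are neighbours that lie tail to tail, 5457 bases apart with 0 annotated genes between them. Igfbp3 (chr11:7206086-7213923, minus strand) and Igfbp4 (chr11:99041244-99054392, plus strand) share only a chromosome. The others are Igf1 (chr10:87858265-87937042, plus strand), Igf1r (chr7:67952827-68233668, plus strand), Insr (chr8:3122061-3279617, minus strand), Igfbp6 (chr15:102144362-102149511, plus strand) and Igfbp7 (chr5:77349240-77408041, minus strand). Genes annotated on the opposite strand overlap Igf1 (Igf1os), Insr (Vmn2r-ps88 and Gm16180) and Igfbp7 (Polr2b and Gm34648). The sources name no strand setting for the counting, so whether reads of such pairs were kept apart is not known here.

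Of the 9 members, 8, all but Insr, matched a promoter of RefSeq on GRCm38.p6. The stretches below are of 4 of these 8 genes: Igfbp3 and Igfbp7 were highest in endothelium, Igfbp4 in Aspn fibroblasts and Igfbp2 in Ptgds fibroblasts. Each is the run of bases just before the first listed start, 5′ to 3′ on the gene's own strand, and capitals mark a match to a motif. The motifs searched, on both strands, were TATAAA and its variants (TATATA and, separately, TATTTA), then CCAAT, and the GC box GGGCGG. The motifs were picked after the sequences had been seen.
Igfbp3 (chr11:7213924-7214023, minus strand): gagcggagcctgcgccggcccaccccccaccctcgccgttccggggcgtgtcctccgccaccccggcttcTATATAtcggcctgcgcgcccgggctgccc
Igfbp4 (chr11:99041144-99041243, plus strand): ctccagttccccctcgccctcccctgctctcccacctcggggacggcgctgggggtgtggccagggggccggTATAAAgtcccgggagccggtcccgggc
Igfbp7 (chr5:77408046-77408145, minus strand): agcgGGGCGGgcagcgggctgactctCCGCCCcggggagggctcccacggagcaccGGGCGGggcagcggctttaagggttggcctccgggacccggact
Igfbp2 (chr1:72824380-72824479, plus strand): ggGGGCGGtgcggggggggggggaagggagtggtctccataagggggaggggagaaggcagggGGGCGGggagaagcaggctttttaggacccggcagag

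Igfbp3 and Igfbp4 had a TATA-type run close to the start, TATATA at -30 to -25 in Igfbp3 and TATAAA at -28 to -23 in Igfbp4, counting back from the listed start. Igfbp7 had 3 matches to GGGCGG, of which the match written CCGCCC lies on the other strand, and Igfbp2 had 2. Of the genes not shown, Igf1r had 2 matches to GGGCGG, Igfbp5 had TATTTA at -51 to -46 and Igfbp6 had CCAAT at -50 to -46. Igf1 had 0 matches, and its window held 0 bases outside the annotated gene to print. Among 32851 promoters of the table, 5.56% held TATAAA in the same window of 100 bases, 2.19% held TATATA, 4.74% held TATTTA, 18.9% held CCAAT and 24.7% held GGGCGG. A match describes letters in this window and shows neither binding nor a cause.

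The library held 13065 barcodes, of which 9427 had at least 1000 UMIs (counted RNA molecules), at least 500 genes and at most 20% mitochondrial UMIs, with a median of 10861 UMIs. Cells were gated by UMIs of marker genes, which put 8200 of them in 1 class, 452 in more than 1 and 775 in none, and only the 8200 were compared. They fell into 682 neurons, 3455 glia, 2042 connective tissue cells, 310 vessel cells, 640 immune cells and further classes, among them 632 erythroid-like cells. The ganglion's own cells were present, as were 230 bone-like, 230 oligodendrocyte lineage-like and 60 astrocyte-like cells that are not part of a ganglion. A gate is a range of marker counts and not a cell type: 369 glia lay within 1.5 times above the glial cut and 74 ungated cells within the same distance below it, against 4 and 2 for endothelium and 4 and 4 for macrophages. The fibroblast list stood at a median of 2.42 UMIs per 10000 in macrophages, 5.41 in satellite glia and 66.4 in immature Schwann-like cells. It was 271 in all fibroblasts and 165 in Slc4a10 fibroblasts. The median of immature Schwann-like cells lay above the fibroblast cut of 50, and such cells stayed in the glia by a rule given with the processing. Taken singly, 7 fibroblast markers had a median in Schwann-like cells of 0.555% of the level in their source cells, and the highest was 20.1%. The part of fibroblast RNA in the Schwann values was not tested. Depth differed widely: 357 neurons had at least 10000 UMIs (median 95426), while 325 shallow ones had a median of 1965.

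Levels are given as CPM, the share that a gene's UMIs take of all UMIs of a class, scaled in the usual way, with exact 95% Poisson intervals; shares of cells have exact Clopper-Pearson intervals and ratios exact conditional binomial ones. All of them cover counting error only, not differences between animals, and those of levels and ratios also leave out the spread between cells. Without its top cell a level can lie outside its interval, as for Igf1 in A-fibre-like neurons below. A gene was called higher or lower when both sides together held 20 UMIs or more, the levels differed by at least 2-fold and the interval of their ratio left out 1. Erythroid-like cells, which should lack most of these transcripts, served as the background, since droplets also hold free RNA. Neuron markers stood there at 1.98% of their level in neurons (median of 10 markers). Deep neurons hold more UMIs than erythroid-like cells (medians 95426 and 10038), so equal free RNA would take a smaller share in them. A level in deep neurons near or under the erythroid-like one therefore does not show what part of it is free RNA. UMIs at gene ends are not comparable between genes, so levels are compared only within a gene.

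The ligand and most binding protein genes were connective tissue genes in this library, whereas the receptor genes were not called there. Compared with all other gated cells, 6 of the 9 members were higher in connective tissue cells and 0 were lower, where 15.9% and 22.8% of 19576 genes were called in those directions. The 6 were Igf1 (ratio 25.6, interval 24.5 to 26.8), Igfbp6 (18.8), Igfbp5 (18.5), Igfbp2 (15.2), Igfbp4 (14.9) and Igfbp7 (4.13). Igf1r (1.05), Insr (1.00) and Igfbp3 (1.30) were not called. The median log2 ratio of the members was 3.88, against -0.10 over all genes tested. Connective tissue cells held 22.3% of all gated UMIs but 88.0% of the Igf1 UMIs, 84.3% of Igfbp6, 84.1% of Igfbp5, 81.4% of Igfbp2 and 81.0% of Igfbp4.

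Vessel cells had another set. In them 5 members were higher, at a background of 12.1%: Igfbp7 (ratio 26.2, 25.5 to 26.9), Igfbp3 (16.7, 15.4 to 18.2), Insr (4.70, 4.18 to 5.27), Igf1r (2.94, 2.71 to 3.18) and Igfbp4 (2.10, 2.0 to 2.2). A further 3 were lower, at a background of 17.4%: Igfbp6 by 19.2-fold from 4 UMIs, Igfbp2 by 5.72-fold and Igf1 by 2.61-fold. With 2.34% of the gated UMIs, vessel cells held 38.6% of the Igfbp7 UMIs and 28.6% of the Igfbp3 UMIs.

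In neurons 0 members were higher and 7 were lower, where 20.5% and 35.1% of genes were called. Igfbp7 was 45.7-fold lower, Igfbp4 22.0-fold, Igf1 8.41-fold, Igfbp5 7.89-fold, Igfbp6 6.96-fold, Igfbp3 3.73-fold and Igfbp2 3.44-fold. The receptors were near the level of other cells, with ratios of 1.11 for Igf1r and 0.735 for Insr. CPM is a share, and neurons hold many more UMIs than other cells: as UMIs per cell, Igf1r and Insr were the members at least 2-fold higher in neurons, with log2 ratios of 2.16 and 1.57. In these units Igfbp2 and Igfbp3 also turned, to log2 ratios of 0.23 and 0.11. In glia 0 members were higher and 6 lower (9.85% and 32.6% of genes), led by Igf1, 56.5-fold lower at 4.06 CPM and below the 5.88 CPM of erythroid-like cells. In immune cells 0 were higher and 5 lower (13.4% and 28.1%), all of them binding protein genes, by 4.88-fold for Igfbp2 to 11-fold for Igfbp7. The plot of levels and detection by cell class shows these blocks side by side.

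**Figure D1:**
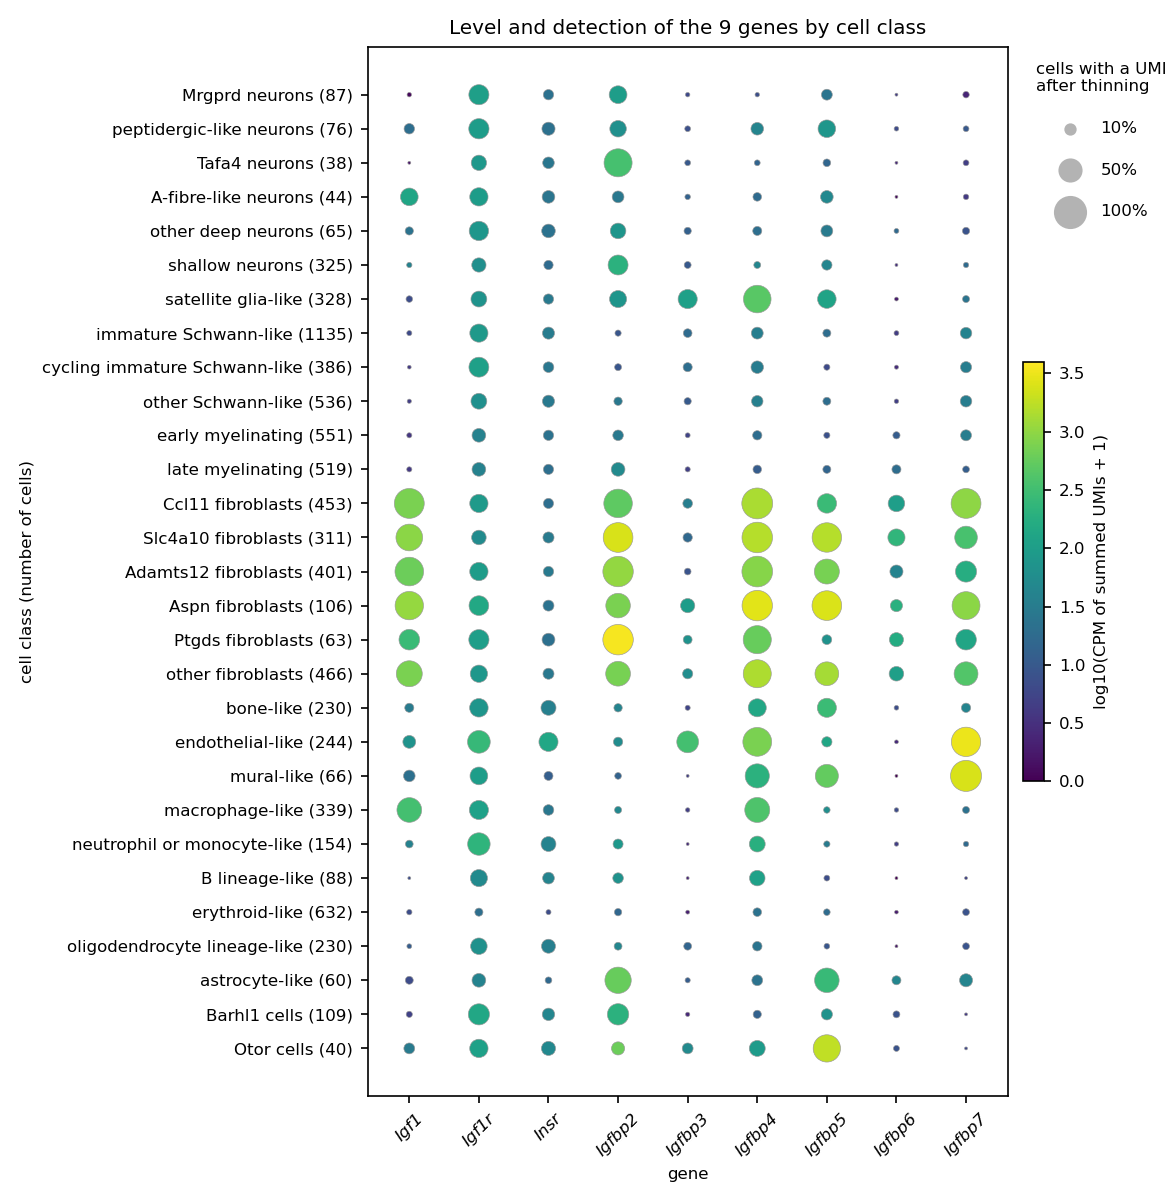
The 9 genes (columns) in the 29 cell classes with at least 30 cells (rows, number of cells in brackets). Colour is log10 of the CPM of summed UMIs plus 1 and the area of a point grows with the share of cells with a UMI after thinning each cell to 5000 UMIs; the fibroblast rows are bright for Igf1, Igfbp2, Igfbp4 and Igfbp5, and the endothelial row for Igfbp7, where it reached 3142 CPM.

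Igf1, the ligand, was highest in fibroblast-like cells, where 75% of 1800 cells had a UMI and the summed level was 761 CPM (749 to 772). Aspn fibroblasts, gated on Aspn, Omd and Mecom, stood first at 1055 CPM (1005 to 1106), followed by Slc4a10 fibroblasts at 946, fibroblasts of no named kind at 751, Ccl11 fibroblasts at 748 and Adamts12 fibroblasts at 613. All neighbours in this order differed beyond counting error except the fibroblasts of no named kind and the Ccl11 fibroblasts. Ptgds fibroblasts, gated on Ptgds, Slc6a20a and Vtn, were low among them at 277 CPM, 2.82-fold under all other fibroblasts. Bone-like cells, gated on osteoblast genes, had 29.4 CPM, 25.9-fold less than fibroblasts. The Aspn and Ptgds gates were drawn after clusters of these cells had been seen.

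Macrophage-like cells were the next class outside connective tissue, with 331 CPM (311 to 352). A UMI was found in 65.2% of 339 macrophages (median depth 8406 UMIs) against 4.91% of 632 erythroid-like cells (median depth 10038), and after thinning to 5000 UMIs the shares were 63.0% and 2.10%. Their 6 fibroblast markers summed to 486 CPM, against 409 CPM in erythroid-like cells and 35043 CPM in fibroblasts. The Igf1 of macrophages was 56.3-fold (41.6 to 78.0) above the erythroid-like level. Of 7 fibroblast markers taken singly, the median in macrophages was 0.87% of the level in their source cells, and the highest was 13.3%. In erythroid-like cells the median was 0.547%. The part of fibroblast RNA in the Igf1 of macrophages was not tested. Macrophages with Lyve1, Folr2 or Cd163, markers of a kind found along vessels, had 409 CPM and those with MHC class II genes 106 CPM, 30% of it from 1 cell, 3.26-fold (interval of the ratio 0.217 to 0.422) less than the remaining macrophages at 346. Neutrophil or monocyte-like cells had 37.5 CPM, with UMIs in 6 of 154 cells, 49.2% of them in 1 cell (19.1 CPM without it).

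Among neurons, Igf1 was concentrated in A-fibre-like cells, a gate named for large myelinated touch neurons and set here on Nefh, Ntrk3, Ntrk2 and Pvalb. These 44 cells held 505 Igf1 UMIs, 128 CPM (117 to 140), against 9.36 CPM in all other deep neurons, a ratio of 13.7 (11.8 to 15.9). Single cells ranged from 0 to 827 CPM with a median of 34.2. At least 1 UMI was present in 26 of them and at least 5 UMIs in 17, so cells with much Igf1 stood beside cells with none in the same gate. After thinning, 31.8% of the A-fibre-like cells (18.6 to 47.6) kept a UMI, against 2.10% of erythroid-like cells; unthinned the shares were 59.1% at a median depth of 102668 UMIs and 4.91% at 10038. The cell with the most held 16.2% of the UMIs and the level without it was 107 CPM.

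Markers of fibroblasts and macrophages were measured in the same A-fibre-like neurons. The 6 fibroblast markers summed to 246 CPM, against 409 CPM in erythroid-like cells and, among subtypes, 570 in peptidergic-like, 202 in Tafa4, 125 in Mrgprd and 64.4 in Trpm8 neurons, and the 7 macrophage markers to 5.58 CPM, against 6.95 CPM in erythroid-like cells, with 1 of the 7 at 0. A-fibre-like neurons are deeper than erythroid-like cells, with medians of 102668 and 10038 UMIs, and CPM is a share. As counts, the fibroblast markers held 971 UMIs in 44 A-fibre-like neurons and 3058 UMIs in 632 erythroid-like cells. The macrophage markers held 22 and 52 UMIs. Per cell, both lists were thus higher in the A-fibre-like neurons. The part of such RNA in their Igf1 was not tested. Markers of the same type that were not used in the gate were higher than in other deep neurons: Calb1 by 21.8-fold, Spp1 by 10.5-fold and Necab2 by 2.15-fold. Few cells of the gate held at least 1 UMI per 10000 of these genes. The 5 with Calb1 had 200 CPM of Igf1, with 2 of the 5 cells at 50 CPM or more. The 4 with Necab2 had 23.8 CPM, with 1 cell at 50 CPM or more, and the 4 with Spp1 had 0 UMIs. The 40 cells under that cut for Spp1 held 505 Igf1 UMIs. For Necab2, 26 deep neurons reached the cut, 4 of them in the gate. When the gate was split after these values had been seen, the 24 cells with Ntrk2, the receptor of BDNF, had 197 CPM of Igf1 and the other 20 cells 41.6. By Ntrk3, the receptor of NT-3, the 21 cells with it had 69.4 CPM and the 23 without it 175.

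Igf1 was lower in the other neuron kinds. Mrgprd neurons, the non-peptidergic nociceptors of skin, held 2 UMIs in 1 of 87 cells, 0.212 CPM, the lowest level of any class with at least 30 cells. Tafa4 neurons also held 2 UMIs in 38 cells. Peptidergic-like neurons, gated on Calca and Tac1, had 18.3 CPM with UMIs in 22 of 76 cells, 3.11-fold above erythroid-like cells. The fibroblast markers of these peptidergic-like neurons stood at 570 CPM and their macrophage markers at 24.6, above all other subtype gates for both lists, and the part of such RNA in their Igf1 was not tested. The 65 deep neurons outside a single subtype gate had 22.6 CPM of Igf1, 36.1% of it from 1 cell (14.5 CPM without it). Mrgpra3 neurons had 11.8 CPM, 50% of it from 1 cell, and 5.91 CPM without that cell, near the level of erythroid-like cells. Trpm8 and Sst neurons held 1 UMI each. The plot of single deep neurons shows both patterns that stand out between subtypes, Igf1 and Igfbp2.

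**Figure D2:**
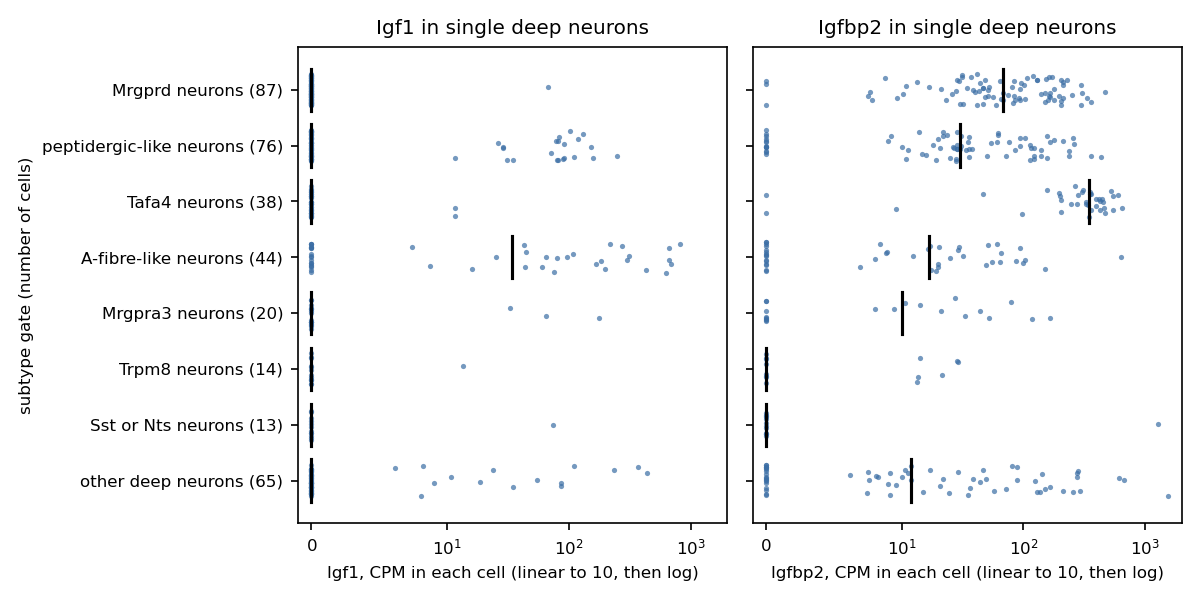
Igf1 (left) and Igfbp2 (right) in each neuron with at least 10000 UMIs, by subtype gate (rows, number of cells in brackets); points are cells, the x axis is CPM in the cell, linear up to 10 and logarithmic beyond, and black bars are medians. For Igf1 only the A-fibre-like row has a median above 0 (34.2 CPM), and for Igfbp2 the Tafa4 row has the highest median (343 CPM).

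Igf1r, the receptor for IGF1, was present in every class at levels closer to each other than those of the ligand. Endothelial-like cells led with 257 CPM (237 to 278), then neutrophil or monocyte-like cells with 219 (197 to 243), and these 2 differed beyond counting error. Aspn fibroblasts (142) and Barhl1 cells (138) followed and did not differ beyond it, with macrophages at 109. Deep neurons had 87.6 CPM. Median levels of single cells lay between 43.2 CPM in Trpm8 neurons and 97.6 CPM in Mrgprd neurons, and 94.7% of 357 deep neurons had at least 1 Igf1r UMI at their depth; after thinning the share was 36.1%, against 5.95% of erythroid-like cells. Erythroid-like cells had the lowest level, 18.7 CPM, with early and late myelinating Schwann-like cells next at 37.4 and 38.2.

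Neutrophil or monocyte-like cells had 2.01 times (1.72 to 2.34) the Igf1r level of macrophages, with a UMI in 104 of 154 cells. The order of ligand and receptor was thus opposite in the 2 myeloid classes, since macrophages had the higher Igf1. Among fibroblast kinds, Aspn fibroblasts had 2.72 times (2.25 to 3.28) the Igf1r level of Slc4a10 fibroblasts, 142 against 52.5 CPM, while both were rich in Igf1.

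Insr, the insulin receptor gene, had a single high class. Endothelial-like cells stood at 137 CPM (123 to 153), 2.93 times (1.84 to 4.92) the next class. The following classes, Otor cells at 46.9, Barhl1 cells at 44.0, B lineage-like cells at 40.4 and neutrophil or monocyte-like cells at 40.0 CPM, did not differ from their neighbours beyond counting error. Mural-like cells, the pericytes and smooth muscle cells of vessels, were 12.7-fold (5.78 to 34.9) under endothelium with 6 UMIs. A UMI was found in 49.6% of 244 endothelial-like cells (median depth 6757 UMIs) against 5.54% of erythroid-like cells; thinned, the shares were 37.3% and 1.75%.

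The balance of the 2 receptor genes varied between classes. Over all gated cells there were 3.08 Igf1r UMIs for each Insr UMI (2.96 to 3.20). The ratio was 4.20 in neurons, 5.48 in neutrophil or monocyte-like cells, 6.51 (4.55 to 9.58) in Aspn fibroblasts and 8.83 (3.80 to 25.1) in mural-like cells. It was 1.77 in Slc4a10 fibroblasts, 1.87 in endothelium and 1.83 in myelinating Schwann-like cells, against 3.17 in immature ones. Levels of different genes are not comparable here, so only differences of this ratio between classes can be read.

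Igfbp2 encodes a binding protein that is abundant in cerebrospinal fluid. It was highest in Ptgds fibroblasts, 3526 CPM (3403 to 3652), then in Slc4a10 fibroblasts, 2386, and Adamts12 fibroblasts, 1045. Ccl11 fibroblasts were lower at 508 CPM, 2.88-fold under all other fibroblasts. Astrocyte-like cells had 586 CPM with a UMI in 51 of 60 cells. The 627 CPM of Otor cells came from 8 of 40 cells, 35.0% of it from 1 cell.

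Tafa4 neurons were the neurons with the most Igfbp2. This gate is named for its gene: Tafa4 marks C-fibre touch neurons in the adult, but Th, another marker of that kind, had 5 UMIs here, while Slc17a8 was 17.3-fold and Zfp521 9.27-fold above other deep neurons. The 38 cells held 1041 Igfbp2 UMIs, 341 CPM against 63.8 in other deep neurons, a ratio of 5.35 (4.95 to 5.78). Single cells ranged from 0 to 647 CPM with a median of 343, and 36 had a UMI. After thinning 81.6% kept a UMI (65.7 to 92.3), against 4.73% of erythroid-like cells, and without the top cell the level was 319 CPM. Their fibroblast markers stood at 202 CPM, against 125 in Mrgprd and 246 in A-fibre-like neurons, and the part of such RNA in their Igfbp2 was not tested.

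Mrgprd neurons had 95.1 CPM of Igfbp2 with UMIs in 84 of 87 cells and a median of 68.2 CPM, 6.65-fold above erythroid-like cells. A-fibre-like neurons had 26.9 CPM and Trpm8 neurons 7.81. The summed levels of Igf1 and Igfbp2 thus had different orders over the subtype gates. Counted from 1 UMI, the genes were not separate by cell: of the 44 A-fibre-like neurons 26 had an Igf1 UMI and 29 an Igfbp2 UMI, so some held both. At least 5 UMIs were present in 17 cells for Igf1 and 6 for Igfbp2, and these counts do not show whether any cell held both. The 325 shallow neurons had 198 CPM of Igfbp2, 2.19 times the deep ones, and their fibroblast markers stood at 1121 CPM; the part of free RNA in that value was not tested.

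Igfbp3 encodes the main carrier of IGFs in blood. It was an endothelial gene in this library, at 338 CPM (315 to 362), 3.16 times (2.82 to 3.55) the next class. That class was satellite glia-like cells, the flat glia around neuron bodies, gated on Fabp7, Kcnj10, Ednrb, Ptprz1 and Kcnj3, which had 107 CPM and did not differ beyond counting error from Aspn fibroblasts at 95. After thinning, 37.5% of satellite glia had an Igfbp3 UMI against 0.701% of erythroid-like cells. The 66.0 CPM of Ptgds fibroblasts rested on 1 cell with 74.1% of the UMIs, and was 17.1 CPM without it.

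Igfbp4 encodes a binding protein that mostly restrains IGFs and is cut by the protease PAPP-A. It was highest in Aspn fibroblasts, 2733 CPM (2653 to 2815), with a UMI in all 106 cells. Slc4a10 fibroblasts had 1556, Ccl11 fibroblasts 1399 and Adamts12 fibroblasts 892 CPM. Outside connective tissue, endothelial-like cells had 747, satellite glia 455 and macrophages 397 CPM. Lyve1 macrophages had 794 CPM, 2.64 times (2.35 to 2.97) the remaining macrophages. Mrgprd neurons had 6.26 CPM, under the 21.8 CPM of erythroid-like cells.

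Igfbp5 encodes a binding protein that attaches to matrix and bone mineral. Its levels spread widely between fibroblast kinds: 2517 CPM (2440 to 2596) in Aspn fibroblasts, 1577 in Slc4a10, 718 in Adamts12, 274 in Ccl11 and 67.2 in Ptgds fibroblasts (37.6 without the top cell). Ptgds fibroblasts, the first for Igfbp2, were thus 14.7-fold under all other fibroblasts for its chromosomal neighbour Igfbp5. Otor cells had 1829 CPM with a UMI in 33 of 40 cells, mural-like cells 543, bone-like cells 279 and astrocyte-like cells 266. Peptidergic-like neurons had 75.7 CPM, 2.82 times (2.5 to 3.18) other deep neurons, and they also had 3.14 times the Igfbp4 and 2.09 times the Igfbp7. That Igfbp7 level was 8.89 CPM, against 7.22 CPM in erythroid-like cells, and after thinning 2.63% and 4.03% of cells had a UMI. The higher fibroblast and macrophage markers of peptidergic-like neurons, given above with Igf1, moved with these 3 genes, and their part was not tested.

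Igfbp6, whose product prefers IGF2 to IGF1, was found mostly in fibroblasts. Slc4a10 fibroblasts had 229 CPM (215 to 244), Aspn fibroblasts 193, Ptgds fibroblasts 165, Ccl11 fibroblasts 98.4 and Adamts12 fibroblasts 39.9. The values of Aspn and Ptgds fibroblasts did not differ beyond counting error, and in Aspn fibroblasts only 22 of 106 cells had a UMI, with 22.7% of the UMIs in 1 cell (149 CPM without it). The Ptgds level was 114 CPM without the cell that held 31% of it. Endothelial-like cells held 4 UMIs, and mural-like and B lineage-like cells held 0, which allows up to 5.40 CPM and 4.33 CPM at 3 counts.

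Igfbp7, the weak IGF binder of vessel matrix, reached 3142 CPM (3071 to 3214) in endothelium and 2430 (2302 to 2563) in mural-like cells, with a UMI in 90.2% and 100% of cells. Ccl11 fibroblasts (959) and Aspn fibroblasts (948) followed and did not differ beyond counting error. Ccl11 fibroblasts had 2.67 times (2.58 to 2.77) the level of all other fibroblasts. Slc4a10 fibroblasts had 352 CPM, Adamts12 fibroblasts 174 and Ptgds fibroblasts 130.

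Each fibroblast kind thus had its own mixture, as the plot of connective tissue levels shows. Aspn fibroblasts led in Igf1, Igf1r, Igfbp3, Igfbp4 and Igfbp5, Slc4a10 fibroblasts in Igfbp6, Ptgds fibroblasts in Igfbp2 and Ccl11 fibroblasts in Igfbp7. For Igfbp7 the lead over Aspn fibroblasts was within counting error. Bone-like cells were lower than fibroblasts in Igf1 and all 6 binding protein genes, by 3.40-fold for Igfbp5 to 28.8-fold for Igfbp2, while Igf1r (ratio 0.874) and Insr (1.41) differed less than 2-fold. The 12 cartilage-like cells had 693 CPM of Igf1 (574 to 830) and 5.83 CPM of Insr from 1 UMI.

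**Figure D3:**
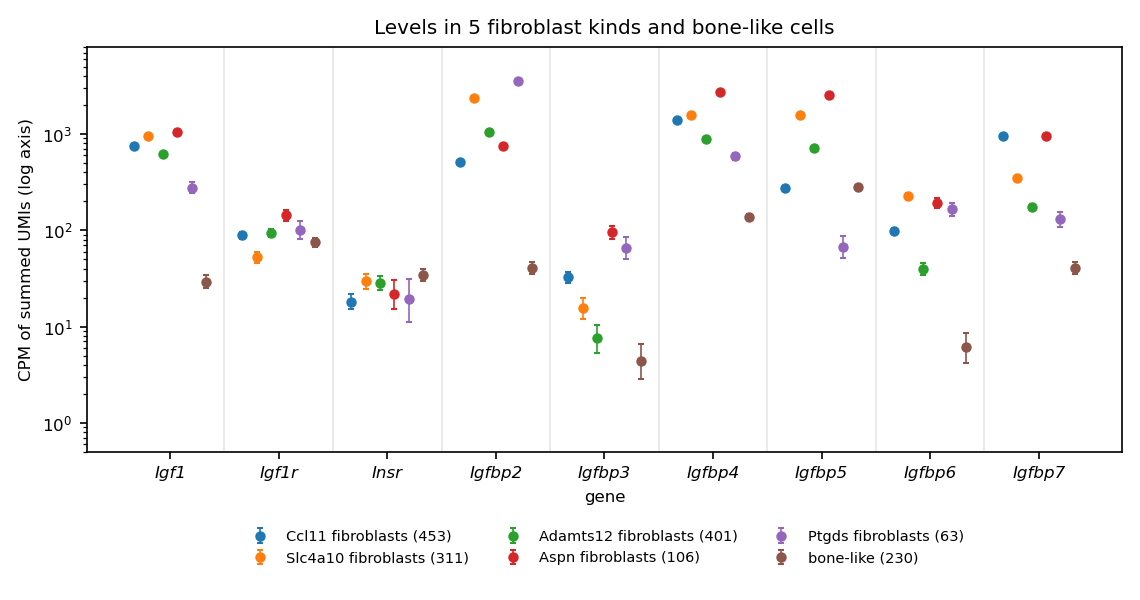
CPM of summed UMIs on a logarithmic axis for the 9 genes in 5 fibroblast kinds and bone-like cells (colours, number of cells in brackets), with 95% Poisson intervals. For Igfbp2 the order runs from Ptgds fibroblasts (3526) down to bone-like cells (40.6), and for Igfbp5 Ptgds fibroblasts are the lowest at 67.2 CPM.

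Fibroblasts also carried several of these genes in the same cell. In 1385 fibroblasts thinned to 5000 UMIs the median was 3 of the 6 binding protein genes per cell, 83.5% of cells had at least 3, 47.4% at least 4, and 9 cells had all 6. Endothelial-like cells (158) and satellite glia (307) each had a median of 2, and immature Schwann-like cells that were not cycling (1031) a median of 0. Igfbp4 was found in 98.0% of 1119 fibroblasts with an Igf1 UMI and in 80.1% of the 266 without, Igfbp2 in 87.4% and 71.1%, and Igfbp5 in 62.8% and 52.6%. For Igf1r the shares were 32.1% and 31.2%, and their intervals overlapped. Cells of 1 library share their source, and these shares are a description.

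Satellite glia-like cells differed from Schwann-like cells in 5 members: 4 were higher, at a background of 12.4%, and 1 was lower, at a background of 7.9%. Igfbp4 was 455 against 25.7 CPM (ratio 17.7, 16.4 to 19.2), Igfbp3 107 against 11.1 (9.67, 8.44 to 11.1), Igfbp5 120 against 12.9 (9.27, 8.16 to 10.5) and Igfbp2 73.7 against 22.2 (3.31, 2.90 to 3.77). Igfbp6 was lower, 0.904 against 7.0 CPM from 4 UMIs. Igf1r (ratio 1.03), Insr (1.09), Igf1 (1.53) and Igfbp7 (0.768) were not called. The satellite glia had 890 CPM of fibroblast markers and Schwann-like cells more, 6626 in immature and 2936 in myelinating cells. Taken singly, 7 fibroblast markers had a median of 0.555% of the level in their source cells in Schwann-like cells. It was 0.477% in satellite glia and 0.547% in erythroid-like cells. The highest single marker stood at 20.1% in Schwann-like cells and 2.37% in satellite glia, and the part of such RNA was not tested. The Igfbp5 ratio depends on where Otor cells are put: left without a gate of their own, some enter the Schwann-like cells and the log2 ratio was 1.88 in place of 3.21.

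Within Schwann-like cells, myelinating cells differed from immature ones in 5 members: 2 were higher, at a background of 5.81%, and 3 lower, at a background of 13.8%. Igfbp2 was 38.3 against 8.18 CPM (ratio 4.69, 3.88 to 5.69) and Igfbp6 13.6 against 2.82 (4.80, 3.48 to 6.75). Igf1r was 2.44-fold lower, 37.8 against 92.3 CPM, Igfbp3 4.19-fold lower, 4.10 against 17.2, and Igfbp4 2.24-fold lower, 14.2 against 31.7. Insr (0.709), Igfbp5 (0.722) and Igfbp7 (0.582) were not called. Igf1 had 2.83 and 4.71 CPM, both under the level of erythroid-like cells. The immature level of Igfbp2 was also under the 14.3 CPM of those cells.

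These differences did not come in a single step. Cells were put in 8 bins by UMIs of 8 myelin genes per 10000. Igf1r stood at 58.7 CPM (33.5 to 95.3) in the first bin of 33 cells, 96.2 CPM in the bin from 10 to 25, 88.2, 68.0 and 39.1 in the next 3, and between 31.2 and 46.1 in the last 3. Igfbp6 went from 2.05 CPM in the bin from 10 to 14.9, 19.8 and 15.3 in the last 3, and Igfbp3 from 21.0 to between 2.10 and 5.71. Igfbp2 was lowest in the middle, 10.2 CPM, and highest at 63.5 in the bin from 400 to 800. The share of cycling cells was also lower in later bins, 38.1% in the bin from 10 and 0.358% in the last; among immature cells, cycling ones had 106 CPM of Igf1r and the others 86. Late against early myelinating cells had 10.5 against 31.6 CPM of Igfbp7, and 50.9 against 27.1 of Igfbp2.

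**Figure D4:**
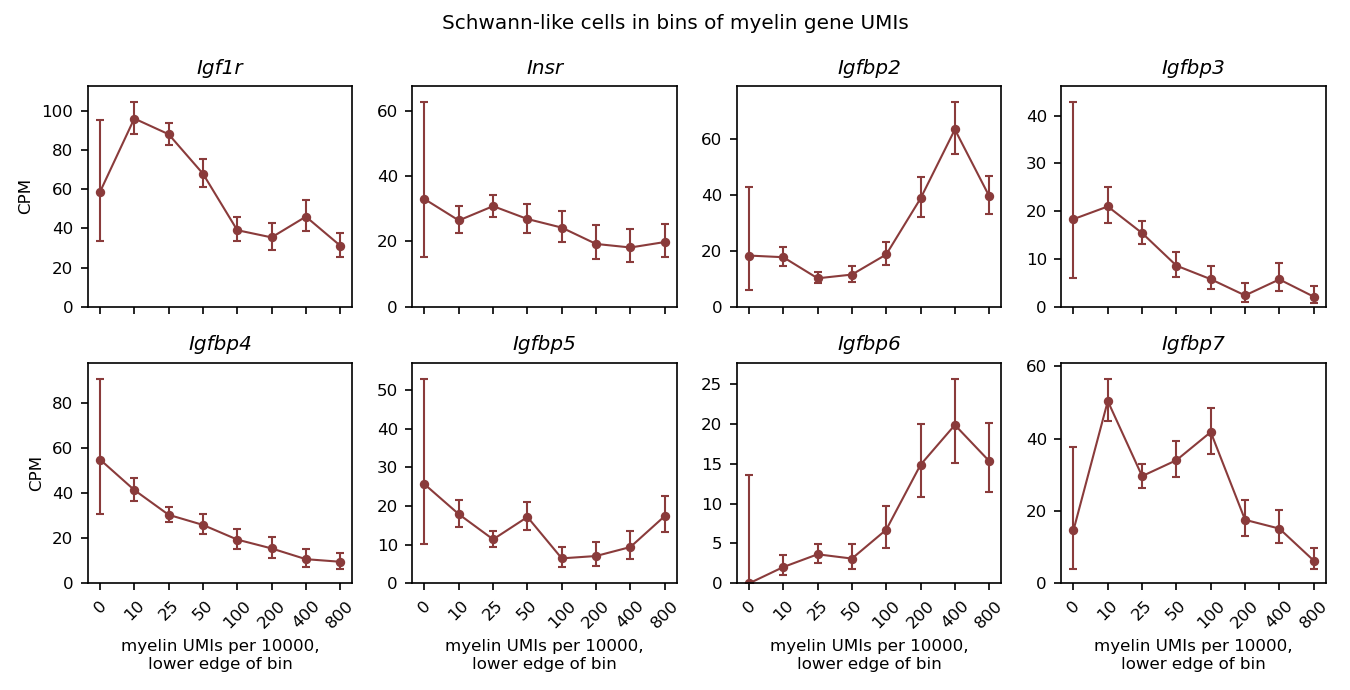
CPM of summed UMIs (linear axes from 0) with 95% Poisson intervals for 8 members in Schwann-like cells put in 8 bins of myelin gene UMIs per 10000 (x axis, lower edge of the bin). Igf1r and Igfbp3 are lower in the bins from 100 upward, and Igfbp6 is higher there, up to 19.8 CPM; the first bin holds 33 cells.

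Endothelial-like and mural-like cells differed in 7 of the 8 members with enough UMIs. In endothelium 6 were higher, at a background of 14%, and 1 was lower, at a background of 9.87%. Igfbp3 was 338 against 3.6 CPM from 2 UMIs (ratio 93.9, 25.9 to 777), Insr 12.7-fold, Igfbp2 4.30-fold, Igfbp4 3.74-fold, Igf1 3.55-fold and Igf1r 2.69-fold higher. The Igfbp2 call rests on 7 mural UMIs, 4 of them in 1 cell, and the log2 ratio turned to -2.27 when the classes were taken from Leiden clusters. Igfbp5 was lower, 136 against 543 CPM (ratio 0.249, 0.212 to 0.293), and Igfbp7 (1.29) was not called. The Igf1 and Igfbp5 levels were uneven within endothelium, in the split described below. Igf1 was 227 CPM in venous, 35.5 in unlisted, 21.1 in capillary and 9.17 in arterial cells, against 19.8 in mural-like cells. Igfbp5 was 543 CPM in venous cells, as in mural-like cells, and 32.7 in unlisted, 18.3 in arterial and 6.67 in capillary cells. Mural-like cells had 1493 CPM of fibroblast markers and endothelial-like cells 389, and the part of these in the Igfbp5 difference was not tested.

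Endothelial-like cells were split by marker lists chosen after the values of the whole class were known. The 30 arterial cells (Gja5, Gja4, Hey1, Sema3g, Efnb2) had 1078 CPM of Igfbp3 against 262 in other endothelium (ratio 4.11, 3.52 to 4.80), and 835 CPM without the cell with the most. The 65 venous cells (Ackr1, Nr2f2, Selp, Vwf) had 227 CPM of Igf1 against 25.3 (8.97, 6.33 to 12.9), 166 without the top cell, and 543 CPM of Igfbp5 against 18.1 (29.95, 20.8 to 44.4), 388 without it. Their Insr was 234 against 109 CPM (2.14, 1.70 to 2.70), with 26.8% of the UMIs in 1 cell (171 CPM without it). As a mean over cells the venous Insr level, 167 CPM, was under the arterial one, 188 CPM. Venous Igfbp7 was 1138 against 3720 CPM. Venous cells had 485 CPM of fibroblast markers, against 430 in capillary cells, and 105 CPM of macrophage markers, against 8.89; 4 of the 7 macrophage markers were at 0, and their part in the Igf1 value was not tested. The 72 capillary cells (Mfsd2a, Slco1a4, Itm2a, Slc16a1, genes of brain-type capillaries) had 343 against 203 CPM of Igf1r (1.69, not called), 282 CPM without the top cell, and 6.67 CPM of Igfbp5 from 6 UMIs. As a mean over cells their Igf1r, 256 CPM, was under the 344 CPM of endothelial-like cells that passed no list. The plot of vessel levels shows the 3 kinds beside mural-like cells.

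**Figure D5:**
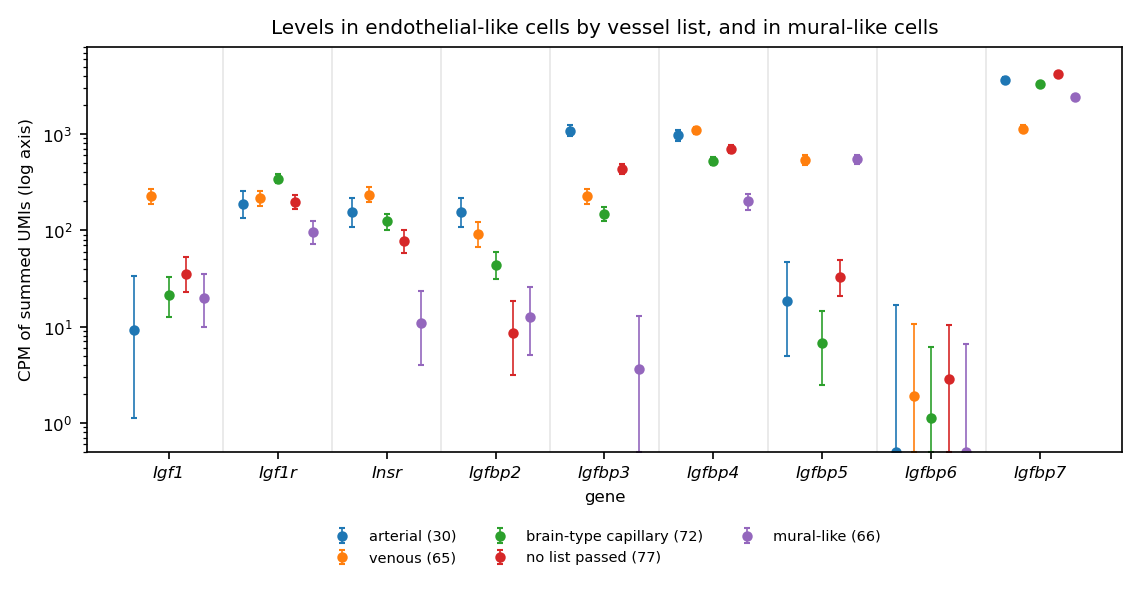
CPM of summed UMIs on a logarithmic axis for the 9 genes in arterial, venous, brain-type capillary and remaining endothelial-like cells and in mural-like cells (colours, number of cells in brackets), with 95% Poisson intervals; levels of 0 are drawn at the lower edge. Venous cells are above the other endothelial kinds for Igf1 (227) and Igfbp5 (543) and below them for Igfbp7 (1138), and the arterial value of Igfbp2 (156) comes with 91.2% of its UMIs from 1 cell.

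Further genes of IGF signalling were taken from a list of 42, of which 38 had at least 20 UMIs. In connective tissue cells 16 of the 38 were higher and 3 lower, where 15.9% and 22.8% of all genes were. In vessel cells 7 were higher and 6 lower (12.1% and 17.4% of all genes), and in neurons 4 and 16 (20.5% and 35.1%). In glia 2 were higher and 14 lower (9.85% and 32.6%), and in immune cells 1 and 17 (13.4% and 28.1%). The lower counts in neurons and glia lie near the share over all genes. Among ligands, Igf2 followed the connective pattern with 52.3 times the level of other cells and 3959 CPM in Ptgds fibroblasts; the insulin gene Ins1 had 0 UMIs. Among receptors, Igf2r, which clears IGF2, was 5.36-fold higher in connective tissue cells, and Insrr, the orphan relative of the insulin receptor, was 34.5-fold higher in neurons at 6.46 CPM. Of the proteases that cut binding proteins, Htra1 was 26.5-fold higher in connective tissue cells, Pappa2 6.61-fold and Pappa 3.73-fold, and all 3 were highest in Slc4a10 fibroblasts (1611, 31.0 and 51.5 CPM). Stc1, an inhibitor of the pappalysins, was 55.7-fold higher in vessel cells.

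Inside the cell, Grb10, an inhibitor of both receptors, was 5.01-fold higher in connective tissue cells and 2.31-fold in vessel cells, and Irs2, a receptor adaptor, 3.83-fold in connective tissue cells. Gab1, another adaptor, was 2.5-fold higher in glia. Socs2, an inhibitor of growth hormone signalling, was 3.55-fold higher in neurons. The transcription factor Foxo1, which IGF signalling keeps out of the nucleus, was 4.49-fold higher in vessel cells. Ghr, the growth hormone receptor, was 4.48-fold higher in connective tissue cells, with 266 CPM in Ccl11 fibroblasts. Among RNA-binding regulators of Igf2, Igf2bp2 was 6.99-fold higher in glia and Igf2bp3 3.95-fold in immune cells. Igfbpl1, a relative of the binding proteins, reached 1795 CPM in Barhl1 cells.

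Across the 29 classes with at least 30 cells, the members' levels went together to different degrees. Igf1 and Igfbp4 were the most alike pair (Pearson r 0.85 of log2 of CPM plus 10), then Igfbp2 and Igfbp6 (0.81). Igf1r and Insr had r 0.62, and Igf1 and Igf1r 0.29. The neighbours Igfbp2 and Igfbp5 had r 0.63. The genes most like each member were Col6a2, Col6a1 and Tgfbi for Igf1 (0.88 for the first), Slk, Clip1 and Ptpn12 for Igf1r (0.78), Rprd2, Icam2 and Gimap5 for Insr (0.76), Pamr1, Bdh2 and Gsta4 for Igfbp2 (0.90) and Hmcn1, Thsd1 and Cavin2 for Igfbp3 (0.80). For Igfbp4 they were Htra1, Igf2 and Elmsan1 (0.90), for Igfbp5 Tgfb3, Igsf10 and Socs1 (0.87), for Igfbp6 Svep1, Col8a2 and Loxl1 (0.94) and for Igfbp7 Cavin1, Tm4sf1 and Rhoj (0.91). The classes share 1 library and its free RNA, and 6 of them are fibroblast classes, so these values describe the library.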

How the data were processed

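Single cells of the ganglion were processed with 10X Genomics chemistry, per the labels' protocols. The deposited values are UMI counts per gene and barcode, whole numbers that the authors did not normalise. Per the submitters' processing notes Cell Ranger 3.1.0 and mm10 were used, while the file header names Cell Ranger 7.0.1; neither states whether introns were counted. The columns of the matrix hold this library only. Molar libraries were left out because they are whole tissue and hold no cell classes.

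Cells were kept and gated by UMIs of marker lists per 10000 with a minimum number of markers detected (80 and 4 for neurons, 8 and 2 for glia, 50 and 3 for fibroblasts, 20 and 3 for endothelial, mural and macrophage cells, 15 and 2 for erythroid cells). Fibroblast kinds needed 3 to 15 UMIs per 10000 of their own genes, Schwann-like cells were myelinating from 100 UMIs per 10000 of 8 myelin genes and late from 400. The 25 deep neurons in more than 1 subtype gate were kept among other deep neurons. The gates for Barhl1, Otor, Aspn and Ptgds cells were chosen after clusters had been seen, and the Otor list was lengthened after the Igfbp5 values of immature Schwann-like cells were seen. The fixed markers Mrgprc10 and Fam19a4 were not matched by symbol. Doublets were not removed in the main values, and leaving out the 754 cells with the highest 8% of scrublet scores was an alternative. Cells in more than 1 gate were left out, after some overlaps were settled by rule. Cells in the glia gate counted as connective too only through Dcn, Lum and Pdgfra or the bone or cartilage gate. Collagen UMIs alone left them in the glia. Astrocyte, oligodendrocyte and Otor gates overrode the glia gate, and the astrocyte gate also the oligodendrocyte gate. Macrophage, B lineage and neutrophil or monocyte gates overrode the MHC class II gate. The members and lists were chosen with earlier results of these data known. All 9 members are described, up to 4 pathway genes of each role with the most UMIs are named, and the 3 genes with the highest r to each member, except 1 pathway gene that is not reported here; Foxo1 and Ins1 lie outside this rule and were named after their values were seen, as were the splits of neurons, endothelium and macrophages. The call rule was tested on simulated counts, which held counting error only and no spread between cells. Python 3.11.15, numpy 2.4.6, scipy 1.17.1, pandas 2.3.3, scanpy 1.11.5, leidenalg 0.10.2 and matplotlib 3.10.9 were used.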

Additional observations from a re-analysis of the deposited data

How the results depend on the processing

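No paired analysis was possible because the ganglion is 1 library. Under 14 alternatives, 11 of them planned and 3 chosen after seeing the data (no Otor gate, no neurons under 10000 UMIs, no top cell of either side), 61 called ratios were recomputed. All those with a value kept their direction, except 59 of 61 as UMIs per cell and 57 of 58 with classes from Leiden clusters; between 51 and 61 stayed at least 2-fold. Counted as UMIs per cell, 2 members in place of 0 and 22 pathway genes in place of 4 were higher in neurons, and 3 members in place of 5 were higher in vessel cells. In these units Igfbp2 and Igfbp3 turned to log2 ratios of 0.23 and 0.11 in neurons, and that scale counts a cell's depth as part of the level. With Leiden clusters Igfbp2 turned to -2.27 between endothelial and mural cells, from 7 mural UMIs in the gated classes; the cause was not tested. In classes under 100 cells single cells can carry a large share of a level.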

Other observations

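Cells of 2 kinds in the matrix had high levels of members without a name from the marker lists. The 109 Barhl1 cells, gated on Barhl1, Otx2os1, Zic1 and Pax6, had 138 CPM of Igf1r (118 to 160), 44.0 CPM of Insr and 196 CPM of Igfbp2, with an Igfbp2 UMI in 78 cells. Their 10 neuron markers summed to 2531 CPM, against 454 CPM in erythroid-like cells. The 40 Otor cells had 1829 CPM of Igfbp5 and 49.4 CPM of Igfbp3, the latter with UMIs in 5 cells and 10 of its 20 UMIs in 1 of them, and their medians were 80.4 UMIs per 10000 of the Otor list and 17.1 of the glial list.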
